A study of Homo sapiens with 3 samples.

Results

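Golgins are long coiled-coil proteins of the Golgi apparatus, and their mRNAs were followed here in a precipitate of the RNA-binding protein MEX3A and in a control precipitate. The members are the 10 genes GOLGA1, GOLGA2, GOLGA3, GOLGA4, GOLGA5, GOLGB1, GCC1, GCC2, TRIP11 and TMF1, taken by gene name from tables of 57820 Ensembl genes. The family was chosen by the Flag over IgG ratio of TRIP11, which was known to be low, and the question was whether every golgin shares that ratio. Since a measured ratio prompted the choice, the ratios below are descriptions and carry no test. All 10 were found, and all 10 passed the minimum of 20 counts (sum of the libraries), as did 10811 genes in all.

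The cells were ACHN, a human line from a renal cell carcinoma, with stable expression of Flag-tagged MEX3A. They were fixed with 0.3% formaldehyde, and the labels also give 0.125 M glycine for both libraries. RNA bound to protein was precipitated either with an anti-Flag antibody or with IgG, the background of the method, with 1 library of each. Both libraries come from the overexpressing cells, so the control carries the tagged protein too. The labels also name input RNA, which was not analysed here, so levels of golgin mRNAs in the cells themselves were not used.

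A golgin is attached to a Golgi membrane near its C terminus, and the rest of the protein reaches into the cytoplasm, where it captures vesicles and binds small GTPases of the ARF, ARL and RAB families. Different golgins mark different faces of the stack. GOLGA2 and TRIP11 act on the entry (cis) side. GOLGB1, also called giantin, and GOLGA5 are anchored by a transmembrane segment, and GOLGA1, GOLGA4, GCC1 and GCC2 are held on the exit (trans) side by a GRIP domain, which in GOLGA1 and GOLGA4 binds ARL1. TMF1 binds RAB6, and GOLGA3 is a further peripheral golgin. MEX3A itself binds mRNA through KH domains.

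The IgG library held 3412864 counts and the Flag library 5498124. CPM values are counts scaled by these totals, and the ratio is Flag CPM over IgG CPM with an exact 95% interval that covers counting error only. A gene was called higher in the Flag library if its interval lay wholly above 2, and lower if it lay wholly below 0.5. Of all genes tested, 28.7% were called higher and 1.32% lower, and the median log2 ratio was 0.95. With 1 library per group there is no replicate check, and a call compares these libraries only. Of 8 renal epithelial markers, 7 had counts in both libraries, among them PAX8 with 222.08 TPM in the IgG and 312.08 TPM in the Flag library, and CDH6 had 0 counts in both. Markers of blood cells (PTPRC, CD3E), endothelium (CDH5) and liver (ALB) had 0 counts in both. MEX3A mRNA had 5 counts in the IgG and 103 in the Flag library.

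The golgins did not share 1 ratio. TRIP11, GCC2, GOLGA4 and GOLGB1 were called lower in the Flag library, GOLGA2, GOLGA3 and GOLGA5 were called higher, and GCC1, GOLGA1 and TMF1 were not called. So 4 of 10 were lower, against 1.32% of all genes, and 3 of 10 were higher, against 28.7%. The ratios of the 4 lower members were close together, from 0.229 to 0.284, while those of the other 6 ran from 1.04 to 4.31. No golgin had a ratio between 0.284 and 1.04. The median log2 ratio of all 10 was 0.10, a value that falls in the lowest part of the upper cluster and describes neither cluster.

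The same 4 golgins were also the most abundant of the family. On the TPM scale, on which genes of unequal length can be compared, they had 433.96 to 5068 TPM in the IgG library and 98.3 to 1379 TPM in the Flag library. The other 6 had 1.04 to 32.1 TPM in the IgG library and 2.61 to 82.2 TPM in the Flag library. The TPM of these clusters did not overlap in either library. In CPM, which is not divided by length, GOLGA3 (611.66) lay above GCC2 (363.94) in the Flag library. In sum, the 4 abundant golgins made up 6.62% of IgG counts and 1.81% of Flag counts, a ratio of 0.273 (0.271 to 0.275), and the other 6 made up 0.0280% and 0.0860%, a ratio of 3.08 (2.87 to 3.30). GOLGA3 alone gave 616 of the 954 IgG counts and 3363 of the 4728 Flag counts of those 6, whose median log2 ratio was 1.05.

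**Figure D1:**
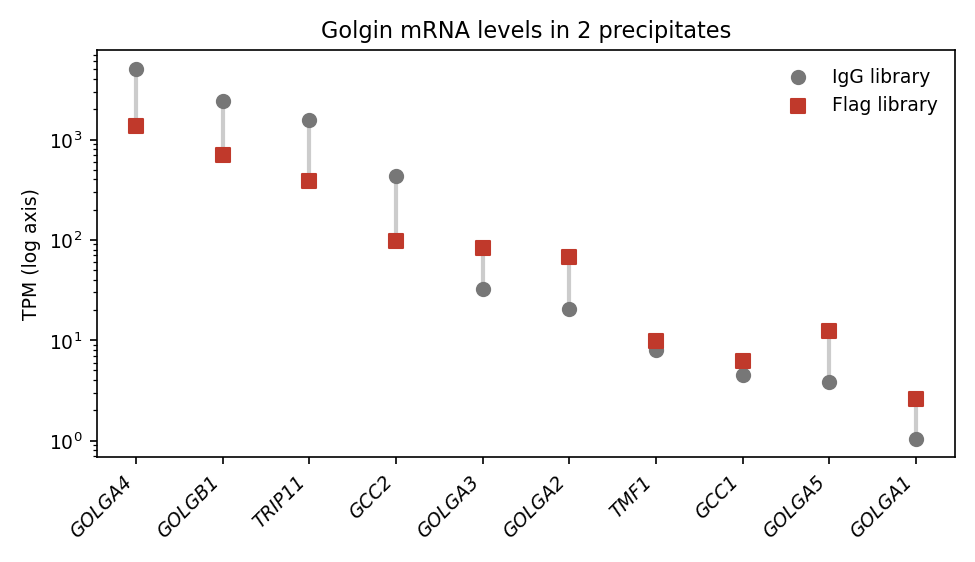
Level of each golgin mRNA in TPM (log axis) in the IgG library (grey circles) and the Flag library (red squares), 1 library each, with genes ordered by IgG level. The 4 genes at the left, from GOLGA4 at 5068 and 1379 TPM to GCC2 at 433.96 and 98.3 TPM, were lower in the Flag library, and the other 6 had higher TPM there.

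On the cis side, TRIP11 and GOLGA2 lay at opposite ends of the family by counts. TRIP11, which encodes a tether that binds curved membranes and ARF1, had 25838 counts in the IgG library and 9539 in the Flag library. With Flag it stood 4.36-fold lower (4.26 to 4.47), and 0.546% of tested genes had a lower ratio. By TPM it stood at 1548 and 382.78, 4.04-fold lower. GOLGA2, which encodes a cis-Golgi matrix protein that binds RAB1 and the stacking protein GORASP1, had 118 counts in the IgG library and 819 in the Flag library. It was 4.31-fold higher (3.55 to 5.27), with 20.6 and 68.0 TPM, and 79.7% of tested genes had a lower ratio. Relative to TRIP11 in the same libraries, GOLGA2 was 18.8-fold higher (15.5 to 23.0) by counts, a contrast that no scaling of the libraries can change. TPM also uses a length for each gene in each library, and the TPM ratios were 3.28 for GOLGA2 and 0.247 for TRIP11. TRIP11 prompted the choice of the family by its low ratio, so all contrasts with TRIP11 are descriptions.

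The transmembrane golgins diverged as well. GOLGB1, the largest golgin, had 78822 counts in the IgG library, where only 7 genes had more counts, and 36082 in the Flag library. It was 3.52-fold lower (3.48 to 3.56), with 2419 TPM in the IgG and 702.26 TPM in the Flag library. GOLGA5, which binds RAB1, had 35 and 180 counts and was 3.19-fold higher (2.21 to 4.73), with 3.85 and 12.3 TPM. The ratio of GOLGA5 was 11.2 times that of GOLGB1 (7.79 to 16.6).

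Among the 4 GRIP-domain golgins, GOLGA4 and GCC2 were lower and GOLGA1 and GCC1 were not called. GOLGA4 was the most counted golgin in both libraries, with 116524 counts (3.41% of the library) in the IgG library and 51663 (0.940%) in the Flag library. It ranked 6th among all genes by counts in the IgG library and 9th in the Flag library, and was 3.63-fold lower (3.60 to 3.67). GCC2 had 4719 and 2001 counts and was 3.80-fold lower (3.60 to 4.01). By TPM, GOLGA4 was 3.68-fold and GCC2 4.41-fold lower.

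GCC1 and GOLGA1 had few counts in either library. GCC1 had 61 counts in the IgG and 102 in the Flag library, a ratio of 1.04 (0.749 to 1.45), and 23.6% of tested genes had a lower ratio. GOLGA1 had 14 and 25 counts, a ratio of 1.11 (0.554 to 2.31). This interval holds a 2-fold rise but not a 2-fold fall, while with TMM scaling it ran from 0.323 to 1.34. The ratio of GCC1 was 4.53 times that of TRIP11 (counting interval 3.26 to 6.33), and that of GOLGA1 4.84 times (2.42 to 10.1).

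GOLGA3 and TMF1 completed the family. GOLGA3 had 616 counts in the IgG and 3363 in the Flag library, was 3.39-fold higher (3.11 to 3.70), and had 32.1 and 82.2 TPM. TMF1 had 110 and 239 counts and a ratio of 1.35 (1.07 to 1.71), below the median gene. It had 7.95 TPM in the IgG and 9.73 TPM in the Flag library, a ratio of 1.22.

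**Figure D2:**
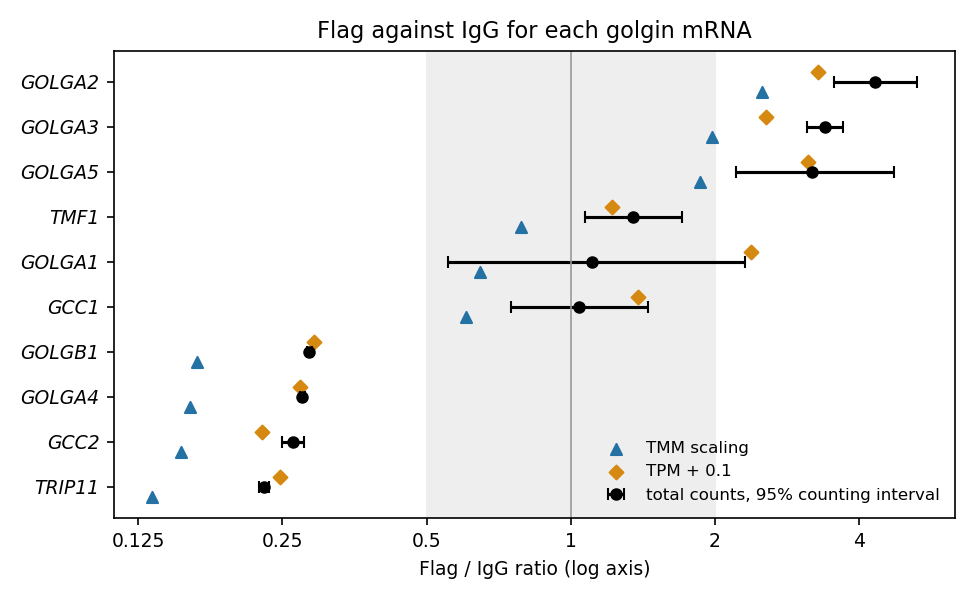
Flag over IgG ratio of each golgin (log axis) from total counts with the exact 95% counting interval (black), with TMM scaling (blue triangles) and from TPM with 0.1 added (orange diamonds); the grey band spans ratios of 0.5 to 2. TRIP11, GCC2, GOLGA4 and GOLGB1 lie left of the band on all 3 scales, and GOLGA2 lies right of it on all 3.

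In the order of the ratios, several neighbours could not be separated by counting error. GOLGA4 over GCC2 was 1.05 (0.991 to 1.10), GOLGA1 over GCC1 1.07 (0.490 to 2.40), TMF1 over GOLGA1 1.22 (0.561 to 2.54) and GOLGA3 over GOLGA5 1.06 (0.710 to 1.55). In other steps the interval lay above 1. GOLGB1 over GOLGA4 was 1.03 (1.02 to 1.05) and GOLGA2 over GOLGA3 1.27 (1.03 to 1.58). The large steps were GCC1 over GOLGB1, at 3.65 (2.63 to 5.10), and GOLGA5 over TMF1, at 2.36 (1.52 to 3.74). TRIP11, the gene that prompted the choice, had the lowest ratio by counts, and GCC2 over TRIP11 was 1.15 (1.08 to 1.22). From TRIP11 to GOLGB1, the count ratios of the 4 abundant golgins spanned 1.24-fold. The order depends on the unit. By TPM, GCC2 (0.227) lay below TRIP11 (0.247), and GOLGA5 (3.13) above GOLGA3 (2.56). GCC1 (1.38) and GOLGA1 (2.38) then lay above TMF1 (1.22).

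The position of 1 on the ratio scale depends on how the libraries are scaled. TMM, a scaling from the bulk of genes, lowered every log2 ratio by 0.78 and called 12.0% of all genes higher and 6.12% lower. The same 4 golgins were then lower, TRIP11 by 7.48-fold, GCC2 by 6.52-fold, GOLGA4 by 6.23-fold and GOLGB1 by 6.04-fold. GOLGA2 was still called higher, at 2.51 (2.07 to 3.07). GOLGA3, at 1.98 (1.81 to 2.16), and GOLGA5, at 1.86 (1.29 to 2.76), lost their calls. The ratios of TMF1 (0.786), GOLGA1 (0.646) and GCC1 (0.605) fell below 1, without a call. With the deposited TPM, which called 44.2% of all genes higher and 6.59% lower without an interval, the calls were those of total counts, and GOLGA1 was called higher in addition, at 2.38 (pseudocount 0.1, and not called with a pseudocount of 1).

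That value of GOLGA1 moved with the length assigned to it. The tables give each gene a length weighted by its estimated isoforms, and for GOLGA1 the effective length was 3916 bases in the IgG and 1758 bases in the Flag library. The full length estimate fell by 52.7%, from 4107 to 1944 bases, a larger change than in 92.1% of tested genes, on 14 and 25 counts. GCC1 fell by 24.1%, from 4149 to 3150 bases. GOLGA3 lengthened by 31.4%, from 5750 to 7554 bases, and GOLGA2 by 27.5%, from 1847 to 2355 bases, which lowered their TPM ratios to 2.56 and 3.28. In the 4 abundant golgins the estimate moved less than in those 4. It fell by 6.97% in TRIP11 and by 1.96% in GOLGB1, was 1.26% longer in GOLGA4 and 15.3% longer in GCC2, and GOLGA5 had 2827 bases in both libraries. Over all tested genes the median change was 17.4% in either direction. Whether different isoforms were precipitated was not tested, since the tables give no counts per isoform.

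**Figure D3:**
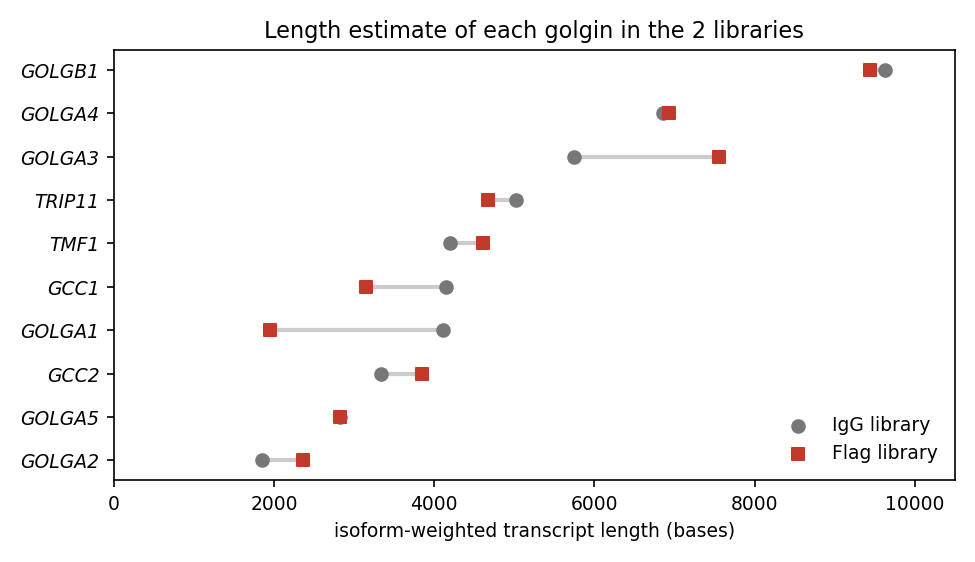
Isoform-weighted transcript length in bases of each golgin in the IgG library (grey circles) and the Flag library (red squares). GOLGA1 moved from 4107 to 1944 bases and GOLGA3 from 5750 to 7554, while GOLGA4, GOLGB1 and GOLGA5 moved by less than TRIP11.

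Counts of GCC2, GOLGA4 and GOLGA1 were fractional in the Flag library, a sign of reads split with other genes, though which ones was not tested. GCC2 shares its GRIP-domain sequence with the RGPD genes, and the sum of GCC2 and 7 RGPD genes had a ratio of 0.292 (0.278 to 0.307), against 0.263 for GCC2 alone. GOLGA4 summed with the pseudogene TCEA1P2, which overlaps it, kept its ratio of 0.275. GOLGA1 summed with SCAI, which overlaps it, had a ratio of 1.40 (0.756 to 2.70). GOLGA2, whose counts were whole, has a pseudogene copy, GOLGA2B, with 6 and 32 counts, and their sum had a ratio of 4.26 (3.52 to 5.19).

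Length did not separate the clusters. TRIP11 and TMF1 both lie between 4000 and 6000 bases (mean of both libraries), a class in which 2.66% of 1127 genes were lower and 40.6% higher. GOLGA3, GOLGA4 and GOLGB1 lie at 6000 bases or more, where 5.96% of 503 genes were lower and 38.8% higher, and GOLGA3 was on the high side there. GOLGA1, GOLGA2, GOLGA5, GCC1 and GCC2 lie between 2000 and 4000 bases, where 0.763% of 3934 genes were lower, and GCC2 was 1 of those 30.

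Level went with the ratio in most of them, in classes set after the values were seen. Of the 49 nuclear protein-coding genes with a mean of at least 1000 CPM over both libraries, 31 (63.3%) were lower in the Flag library, among them GOLGA4, GOLGB1 and TRIP11, and 11 were higher. Of those 49, 38 were 4000 bases or longer, and 29 of the 38 (76.3%) were lower, with a median log2 ratio of -1.85, and 2 were higher. The 11 shorter genes at that level, none of them a golgin, went mostly the other way, with 9 higher, 2 lower and a median log2 ratio of 4.31. With TMM scaling 37 of the 49 and 35 of the 38 were lower. Of genes of that length with 10 to 100 CPM, 0.532% of 940 were lower, and TMF1 falls there. GCC2 fell in another class than GOLGA4, GOLGB1 and TRIP11, near class edges that were set after the values were seen. In the IgG and Flag libraries GCC2 had 1383 and 363.94 CPM and length estimates of 3341 and 3852 bases. By the means of both libraries it lies under 4000 bases and between 100 and 1000 CPM, where 14 of 404 genes (3.47%) were lower. GOLGA3, with a mean level between 100 and 1000 CPM as well (180.49 in the IgG and 611.66 in the Flag library) but longer, was higher. The level and the ratio share the same counts, so a relation between them is a description.

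**Figure D4:**
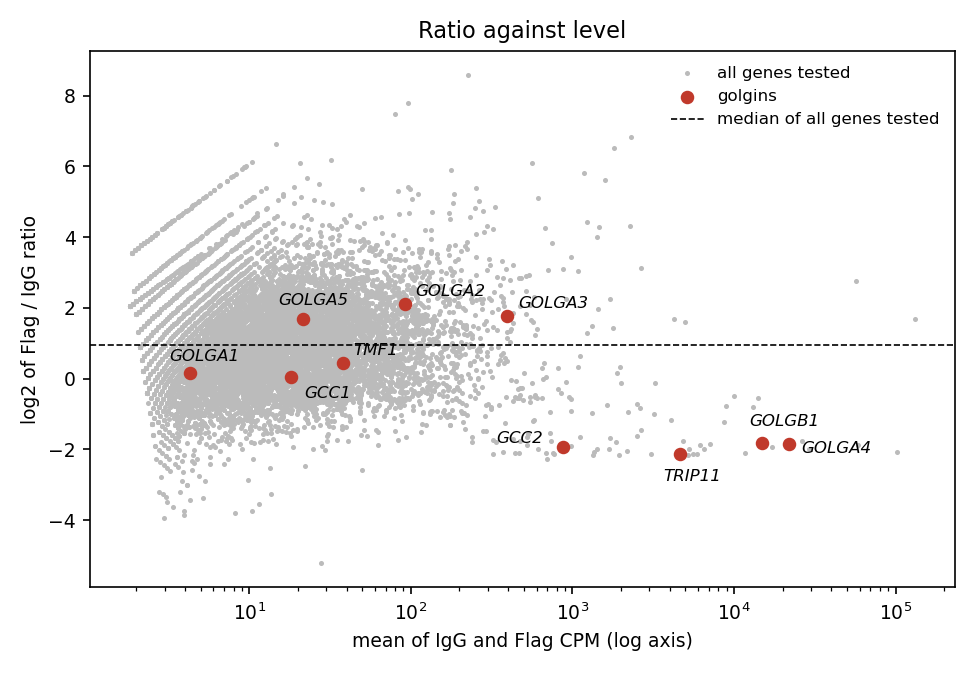
Log2 of the Flag over IgG ratio against the mean CPM of both libraries (log axis) for the 10811 genes tested (grey) and the 10 golgins (red); the dashed line is the median of all genes, 0.95. GOLGA4, GOLGB1, TRIP11 and GCC2 lie near -2 at the right, in a narrow band with other abundant genes, and the other 6 golgins lie among the bulk of genes.

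The 3 protein-coding genes nearest to TRIP11 in both levels, by distance in log2 IgG and log2 Flag CPM over the 2 libraries, were KIF20B, ANKRD11 and BDP1. Closeness in both levels sets a ratio near that of TRIP11, so the values of these genes only describe which other mRNAs lay there. KIF20B, which encodes a mitotic kinesin, had 28865 and 10404 counts. ANKRD11, a chromatin regulator gene, had 28902 and 11652 counts. BDP1, of the RNA polymerase III initiation factor, had 25681 and 12108 counts.

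Coiled-coil mRNAs outside the Golgi were mostly lower in the Flag library. Of 20 such genes, 13 were lower and 1 higher, against 1.32% and 28.7% of all genes, with a median log2 ratio of -1.70. With TMM scaling 17 were lower, against 6.12% of all genes. All 9 with at least 1000 CPM were lower, as were all 3 golgins above that level. In that class, which holds these genes, 63.3% of 49 nuclear protein-coding genes were lower. Of the 11 under it 4 were lower (PCNT, CEP250, RAD50 and SMC3), against 1 of 7 golgins. Between 100 and 1000 CPM 5.26% of 608 nuclear protein-coding genes were lower, and between 10 and 100 CPM 0.564% of 5316. The endosome tether gene EEA1 (32794 and 12017 counts, 4.40-fold lower) and the kinectin gene KTN1 (65200 and 24379, 4.31-fold lower) lay beside TRIP11. NIN, which encodes the centrosomal protein ninein, had 34 and 190 counts and was 3.47-fold higher (2.40 to 5.16), counts and a ratio close to those of GOLGA5. Its length estimate was only 699 bases in the IgG and 841 bases in the Flag library, and which of its isoforms were counted was not tested. NUMA1, of the spindle pole, was not called at 1.65. This list was made with the low ratios of some of its members known.

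Other Golgi coiled-coil genes, outside the 10 golgins, had no member called lower, a share near that of all genes. Of 12, 5 were higher (BLZF1, BICD2, BICD1, USO1 and CUX1) and 0 lower, against 28.7% and 1.32% of all genes. The median log2 ratio was 1.14. With TMM scaling 1 was higher and 1 lower, against 12.0% and 6.12% of all genes, and by TPM CUX1 had a ratio of only 1.31. The length estimate of CUX1 was 2799 bases in the IgG and 5083 bases in the Flag library. Counts are per gene, so whether the isoform of its Golgi product was counted was not tested. BLZF1, which encodes a partner of GORASP2, had 17 and 154 counts and was 5.62-fold higher (3.40 to 9.90). BICD2, a dynein adaptor gene, was 4.95-fold higher (3.96 to 6.26). The lowest were GOLGA8A at 0.652 (0.560 to 0.760), which shares reads with near-identical copies, and C10orf118 at 1.14 (0.942 to 1.37). All 12 had a mean level under 1000 CPM.

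The GTPase genes that recruit golgins to membranes were listed with SYS1, which does not encode a GTPase. This list had a median log2 ratio of 1.14, near that of all genes. Of 13 tested (14 on the list), 2 were higher and 0 lower, against 28.7% and 1.32% of all genes. RAB1A, whose product binds GOLGA2 and GOLGA5, had 74 and 417 counts and was 3.50-fold higher (2.73 to 4.54). ARL1, whose product recruits GRIP-domain golgins, had 37 and 208 counts and was 3.49-fold higher (2.45 to 5.09), but 1.73-fold by TPM. ARF5 (0.546, 0.386 to 0.771) and RAB1B (0.621, 0.450 to 0.857) were at the low end, without a call, though by TPM ARF5 was 2.15-fold lower, past the threshold.

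Among genes of Golgi stacking and Golgi microtubules, 2 of 11 were lower and 2 higher, against 1.32% and 28.7% of all genes. The median log2 ratio was 0.71. The lower ones were AKAP9, the large coiled-coil scaffold of the centrosome and Golgi (33110 and 14517 counts, 3.67-fold lower), and CDK5RAP2, of the centrosome (1692 and 825 counts, 3.30-fold lower). Their ratios of 0.272 and 0.303 lay beside those of GOLGA4 and GOLGB1. The microtubule minus-end gene CAMSAP2 was 6.23-fold higher (4.70 to 8.40) and CLASP2 4.87-fold (3.20 to 7.70). By TPM, 3 of the 11 were lower and 4 higher, against 6.59% and 44.2% of all genes. GORASP1 (33 and 47 counts) was then lower in addition, at 0.358.

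The multisubunit tethers, which work beside golgins, had no lower member. Of all genes 1.32% were lower and 28.7% higher, so 0 lower in lists this short is near the general share. Of 12 COG and GARP genes 0 were higher and 0 lower (median log2 ratio 0.89), with VPS51 at 2.80 (1.86 to 4.35), COG8 at 2.66, COG1 at 0.653 and COG4 at 0.854. Their counts in the IgG library were low, with 29 for VPS51 and 40 for COG4. Of 10 TRAPP genes tested (14 on the list) 2 were higher, TRAPPC10 by 3.39-fold (2.52 to 4.65) and TRAPPC6B, with 2 and 111 counts, at a ratio of 34.5 (9.32 to 288.0). TRAPPC1 (0.666) and TRAPPC11 (0.835) were at the low end, and the median log2 ratio was 0.03.

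Coat, SNARE and glycosylation genes of the Golgi also held no lower member by counts, near the 1.32% of all genes. The share called higher among all genes was 28.7%. Of 15 COPI and COPII coat genes tested (17 on the list) 2 were higher, COPB2 by 4.25-fold and ARCN1 by 3.66-fold, and SEC24B (0.406) and SEC23B (0.717) were not called. By TPM, SEC24B (26 and 17 counts) was 2.43-fold lower, past the threshold. On that scale 1 coat gene was lower and 4 higher, against 6.59% and 44.2% of all genes. Of 13 SNARE genes 3 were higher, with GOSR1 at 4.11, though 1.31 by TPM, BET1 at 5.59, and VAMP4, with 0 and 23 counts, whose exact interval had a lower limit of 3.57. STX5 (0.490) and STX10 (1.10) were at the low end. Of 12 glycosylation enzyme genes tested (13 on the list) 6 were higher, led by GALNT2 at 7.90-fold (6.59 to 9.54) and GALNT1 at 9.57-fold (6.33 to 15.1), which start O-linked chains, while MAN2A2 (0.758) and MGAT1 (1.49) were not called. Over the 98 tested genes of these Golgi lists together, 2 (2.04%) were lower and 22 (22.4%) higher, against 1.32% and 28.7% of all genes, with a median log2 ratio of 0.88. With TMM scaling 6 of the 98 (6.12%) were higher and 6 lower, against 12.0% and 6.12% of all genes. The genes then called lower were 1 of 12 other coiled-coil genes, 2 of 13 on the GTPase list, 2 of 11 stacking and microtubule genes and 1 of 15 coat genes. Each of the other Golgi lists had 0.

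**Figure D5:**
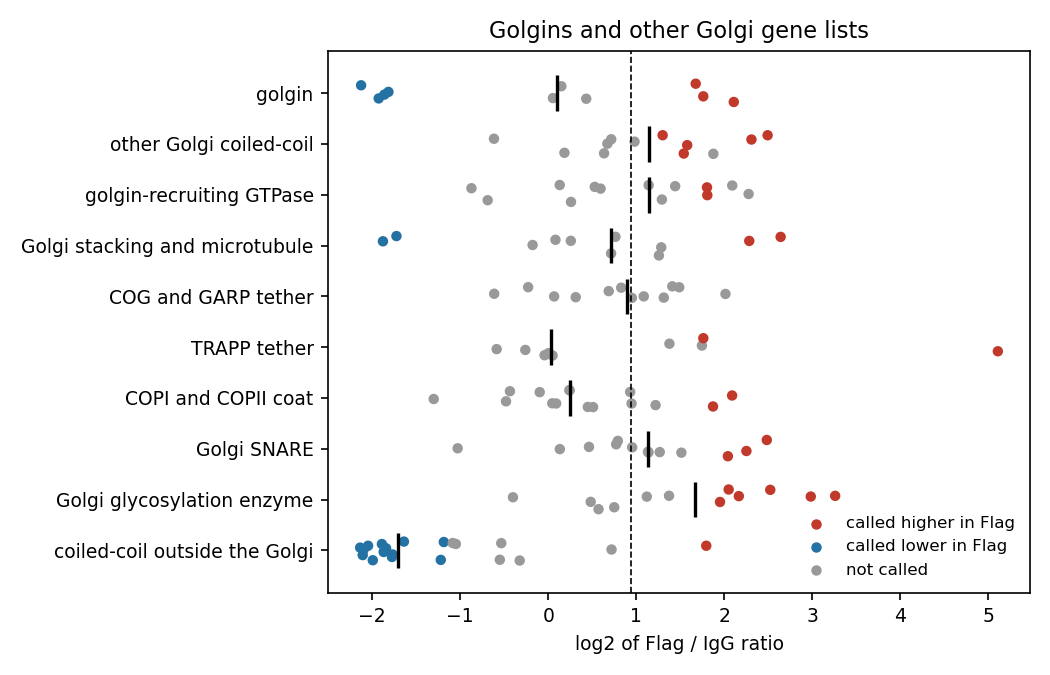
Log2 of the Flag over IgG ratio for the tested genes of each list (points; red called higher, blue called lower, grey not called), with list medians (black bars) and the median of all genes, 0.95 (dashed); vertical scatter within a list has no meaning, and VAMP4 and ST6GAL1, with 0 IgG counts, are drawn at a floor of 3 counts. The golgins fall into clusters near -2 and above 0, and most genes of the other Golgi lists lie above -1.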

How the data were processed

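The labels name 3 samples, and the IgG and Flag tables were used (1 library each). The deposited expected counts are estimated reads per gene in RSEM's gene-level layout, without normalization, per the file headers. The authors also deposited TPM and FPKM, and lengths in bases (another unit) that are weighted by isoform in each library, per the file headers. The submitters' processing notes list RSEM, STAR, GRCh37 and hg19. Annotation release, read filters and strandedness: not given in the sources used here, so antisense reads cannot be told apart. Coordinates are left out, because the gene table at hand is of another build.

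Expected counts were rounded and divided by each library's sum. Ratios were given exact Clopper-Pearson intervals (scipy 1.17.1) from the Flag share of the counts. These were checked on simulated counts that held counting error alone, so the check does not bear on other variation. Intervals of 1 gene's ratio over another's are conditional exact intervals from the 4 counts. Reads carry no molecular identifiers and may be PCR copies, so intervals cover counting error only. A count of 0 was replaced by 3 counts, the limit it allows, for medians and in the plot of lists. TMM (edgeR 4.0.16) and median-of-ratios factors (DESeq2 1.42.0) were taken over all genes and used as scalings only, and no p-value was computed.

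Members and lists were chosen with earlier results of these data known. A marker on these lists is not reported here. The text names all members, up to 2 genes at each end of every other list (highest lower bound, lowest upper bound) and the 3 genes nearest to TRIP11. Genes in sums, genes named to complete a count, and the clusters and level classes were chosen after the values were seen. Alternatives were other scalings, count minimums, TPM and FPKM, 0.5 counts added, protein-coding genes only, other fold thresholds and a 99% interval.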

Additional observations from a re-analysis of the deposited data

How the results depend on the processing

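TRIP11 was called lower under all 13 alternatives, and GOLGA4, GOLGB1 and GCC2 under all but a 4-fold threshold, which left 1 lower and 0 higher golgins. Under TMM 1 golgin was called higher, likewise 1 under median-of-ratios scaling. GOLGA5 also lost its call with a 99% interval and with reduced totals (2.54, 1.76 to 3.76). These leave out mitochondrial genes and the 10 most abundant genes of each library, GOLGA4 and GOLGB1 among them. The median log2 ratio of the golgins was -0.68 with TMM, -0.69 with median-of-ratios scaling and -0.23 with those reduced totals, and 0.38 and 0.33 with TPM at pseudocounts of 0.1 and 1 and 0.37 with FPKM. In log2, GOLGA1 reversed to -0.63, -0.64 and -0.18 under the 3 scalings in that order, GCC1 to -0.72, -0.74 and -0.28, and TMF1 to -0.35 and -0.36 under TMM and median-of-ratios scaling. A scaling moves every log2 ratio alike, by its construction. All genes called higher and lower numbered 1293 and 662 under TMM scaling, 1269 and 675 under median-of-ratios scaling, 4780 and 712 with TPM and a pseudocount of 0.1, 4774 and 713 with FPKM, and 924 and 24 at 4-fold. Those lower numbered 268 with reduced totals, 218 with no filter, 536 with TPM and a pseudocount of 1, and 298 at 1.5-fold. No paired analysis was possible because each group has 1 library. Depth limits GOLGA1 most, with 14 and 25 counts.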
